A study of Mus musculus with 2 samples.

Results

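The genes Zfp57, Grb10 and Nnat were followed in an RNA-sequencing comparison of the embryonic mouse cortex with and without Trrap, a large scaffold subunit shared by histone acetyltransferase complexes. They were chosen by name, with their deposited differences between these same 2 libraries already known, so their values are given as a description and without a test. All 3 had a row of their own among the 2381 rows of the deposited table. The Trrap-deleted sample was the cortex of embryos homozygous for the floxed allele (TrrapF/F NestinCre+), and the control was the cortex of heterozygous embryos (TrrapF/+ NestinCre+), which GEO's labels also enter as wild type. Both came from B6/129 embryos at E14.5, in the middle of cortical neurogenesis, and both carried Nestin-Cre, a recombinase expressed in neural progenitors, so cells outside the neural lineage are not expected to lose Trrap. Each genotype had 1 library, and the number of embryos in it was not stated. Replicate error could therefore not be set beside any value below. The table has no row for Trrap, so the deletion could not be checked in the transcript.

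Imprinted genes are expressed from only the maternal or only the paternal copy, because one copy keeps a DNA methylation mark laid down in the egg or the sperm. Zfp57 encodes a zinc finger protein with a KRAB domain that binds the methylated copy of imprinting control regions in the early embryo and in embryonic stem cells and recruits Trim28, which holds the mark in place. Grb10 encodes an adaptor protein that binds the insulin and IGF1 receptors and dampens their signalling, and in the mouse it is expressed from the maternal copy in most tissues and from the paternal copy in neurons. Nnat encodes neuronatin, a small membrane protein of the endoplasmic reticulum that is abundant in the developing brain and is expressed from the paternal copy. The Nnat gene lies within an intron of Blcap, on the opposite strand. Allele-specific reads were not measured here, so the values below are sums over both copies.

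The promoter windows of the 3 genes are shown because Zfp57 protein is known to bind the six-letter word TGCCGC when its CpG is methylated. The windows run from 250 bases before to 50 bases after each annotated start, come from RefSeq on build GRCm38.p6, and are written 5′ to 3′ on the strand of the gene. RefSeq gave 6 windows for the 3 genes, namely 3 for Zfp57, 2 for Grb10 and 1 for Nnat. The sequences are in lower case, and capitals mark a match to TGCCGC or its reverse complement. The 5′-most window of Zfp57 lies at chr17:37000913-37001212 on the plus strand, the 2 of Grb10 at chr11:12037371-12037670 (upstream) and chr11:12027922-12028221 (downstream) on the minus strand, and that of Nnat at chr2:157559828-157560127 on the plus strand.
Zfp57, 5′-most: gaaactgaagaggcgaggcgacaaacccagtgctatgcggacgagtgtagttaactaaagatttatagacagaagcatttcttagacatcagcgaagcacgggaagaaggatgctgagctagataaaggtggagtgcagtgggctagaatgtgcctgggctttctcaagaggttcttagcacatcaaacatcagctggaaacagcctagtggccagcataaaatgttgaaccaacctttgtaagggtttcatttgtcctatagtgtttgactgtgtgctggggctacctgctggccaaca
Grb10, upstream: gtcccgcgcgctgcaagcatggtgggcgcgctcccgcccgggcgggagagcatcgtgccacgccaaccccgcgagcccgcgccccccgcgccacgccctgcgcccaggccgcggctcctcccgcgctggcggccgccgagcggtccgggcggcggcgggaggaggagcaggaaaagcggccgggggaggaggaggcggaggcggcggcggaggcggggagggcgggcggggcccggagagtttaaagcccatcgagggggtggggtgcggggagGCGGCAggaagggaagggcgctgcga
Grb10, downstream: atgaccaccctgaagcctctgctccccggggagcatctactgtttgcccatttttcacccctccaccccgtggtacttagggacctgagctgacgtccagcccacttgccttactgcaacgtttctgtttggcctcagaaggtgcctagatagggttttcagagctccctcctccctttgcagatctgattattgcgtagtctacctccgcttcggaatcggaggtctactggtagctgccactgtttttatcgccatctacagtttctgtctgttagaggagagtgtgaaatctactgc
Nnat: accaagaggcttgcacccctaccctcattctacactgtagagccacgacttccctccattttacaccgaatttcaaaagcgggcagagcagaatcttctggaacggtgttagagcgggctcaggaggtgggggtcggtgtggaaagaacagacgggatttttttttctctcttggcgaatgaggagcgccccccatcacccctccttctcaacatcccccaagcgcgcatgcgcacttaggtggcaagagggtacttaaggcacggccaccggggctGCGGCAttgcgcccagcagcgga

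The word occurred once in the Nnat window, starting 27 bases after the start site, and once in the upstream Grb10 window, starting 24 bases after it, both times as the reverse complement. It was found in neither the downstream Grb10 window nor any of the 3 Zfp57 windows. Of all 32851 promoter windows of the same length, 3813 (11.6%) held the word on either strand. That share is over windows of any CpG content and is not matched to the upstream Grb10 window. The upstream Grb10 window had 45 CpG dinucleotides, more than 98.1% of all windows, against a median of 7. The Nnat window had 17, and the Zfp57 windows had 6, 9 and 4 from the upstream to the downstream start. CACGTG, the E-box bound by Myc proteins, which recruit Trrap, occurred in none of the 6 windows and in 7.15% of all windows. A word in a window is a description of the sequence, and binding and methylation were not measured here. The windows are promoters, and whether any overlaps an imprinting control region was not examined.

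**Figure D1:**
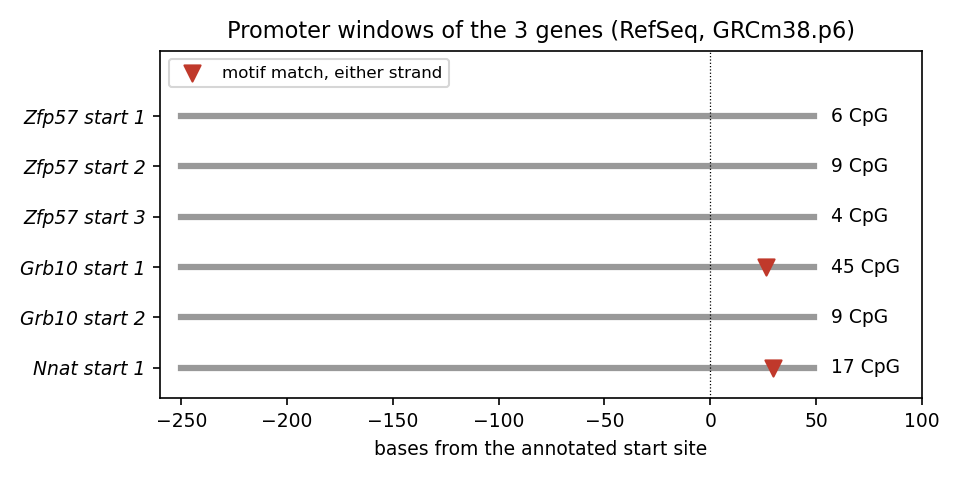
The promoter windows of Zfp57, Grb10 and Nnat are drawn as grey lines against the distance in bases from the annotated start site, with red triangles at each match to TGCCGC on either strand and the number of CpG dinucleotides at the right. The 2 matches lie just after the start site of Nnat and of the upstream Grb10 window, which also has the most CpG dinucleotides, 45.

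All 3 genes were listed lower in the Trrap-deleted cortex, Zfp57 by the most. A row is called listed because the table holds only loci with a q-value of at most 0.05 in the test run by the authors. Of all rows, 42.0% were listed lower, and among the 489 rows with a mean of at least 50 FPKM in the 2 libraries, as all 3 genes had, 71.4% were. A lower value was thus the more frequent direction at the level of these genes. FPKM are fragments scaled by transcript length and by library size, so levels of different genes can be set side by side. The depth of the libraries is unknown, since the file gives no counts. In bulk tissue, fewer cells that express a gene and less RNA per cell cannot be told apart.

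Zfp57 (chromosome 17, 37120728 to 37160343, mm9) had 37.0 FPKM in the Trrap-deleted library and 139.5 FPKM in the control library. Its level was 3.77-fold lower in the Trrap-deleted cortex, a log2 ratio of -1.91, and the authors' deposited table gives it a q-value of 1.99e-12. Of all rows, 13.6% were at least 2-fold lower as deposited, and Zfp57 was the only one of the 3 genes among them. With the median of the listed rows set to 0, Grb10 (log2 ratio -1.45) and Nnat (-1.38) were past that fold too. That scaling lowers every row, and the share of all rows past 2-fold was not counted under it. With equal summed FPKM, Grb10 was at -0.56 and Nnat at -0.48. Among the 999 rows listed lower, 57 were lower by at least as much as Zfp57, itself included. Among the rows with a mean of at least 50 FPKM there were 4 such rows, again with Zfp57. Zfp57 ranked 632nd of 2381 rows by level in the Trrap-deleted library and 214th in the control library.

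Grb10 (chromosome 11, 11830504 to 11938686, mm9) had 49.7 FPKM in the Trrap-deleted library and 93.3 FPKM in the control library, a log2 ratio of -0.91 or 1.88-fold lower. The authors' deposited table gives it a q-value of 7.01e-05. Nnat (chromosome 2, 157368982 to 157397010, mm9) had 452 FPKM in the Trrap-deleted library and 803 FPKM in the control library, a log2 ratio of -0.83 or 1.78-fold lower, and the authors' deposited table gives it a q-value of 1.58e-08. Both differences were close to the median of all rows listed lower, which was 1.74-fold. Nnat was among the most abundant rows of the table, 21st in the Trrap-deleted library and 16th in the control library, and its level fell by 351 FPKM, the 13th largest drop among the rows.

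The order of the 3 levels differed between the libraries. In the Trrap-deleted library the order was Nnat, Grb10, Zfp57, and in the control library it was Nnat, Zfp57, Grb10. Zfp57 stood at 0.745 times the level of Grb10 in the Trrap-deleted cortex and at 1.496 times in the control cortex. The ratio of Nnat to Grb10 moved little, with 9.09 in the Trrap-deleted library and 8.61 in the control library. The ratio of Nnat to Zfp57 was 12.2 in the Trrap-deleted library and 5.75 in the control library. These ratios within a library do not depend on how the libraries were scaled to each other, but with 1 library each they have no error.

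**Figure D2:**
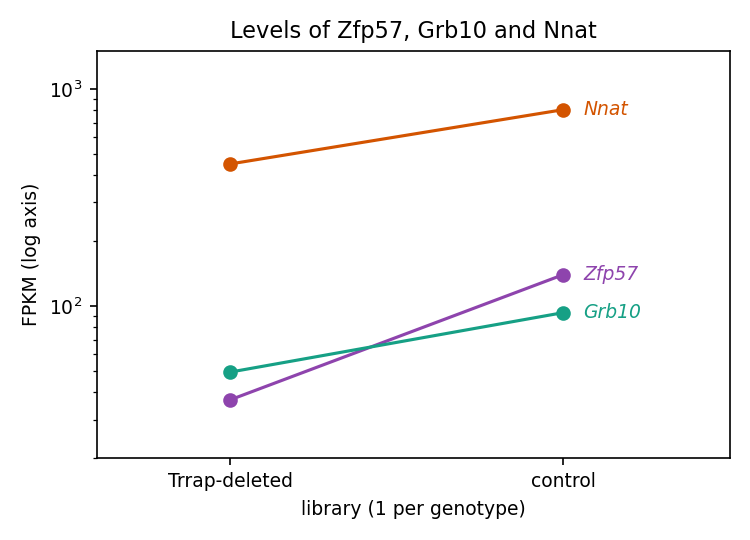
FPKM on a log axis is plotted for Zfp57, Grb10 and Nnat in the Trrap-deleted library (left) and the control library (right), with 1 point per library and a line joining the points of a gene. Nnat and Grb10 run nearly in parallel, while the line of Zfp57 is steeper and crosses that of Grb10, with 37.0 FPKM in the Trrap-deleted library and 139.5 FPKM in the control library.

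The rows of Zfp57 and Nnat cover more sequence than the annotated genes. The Grb10 row spans 108183 bases, against 108176 bases for the gene in GENCODE M21. The Zfp57 row spans 39616 bases, 4.18 times the annotated 9473 bases, and the Nnat row spans 28029 bases, 11.5 times the annotated 2445 bases. Of 2114 single-symbol rows with 1 annotated gene of that symbol, 12.3% were at least 2 times as long as the gene. On GRCm38, the myelin gene Mog lies 108 bases beyond the end of Zfp57 on the opposite strand, and Blcap overlaps Nnat on the opposite strand. Neither Mog nor Blcap had a row of its own, and whether counting used the strand was not stated, so the Zfp57 and Nnat values may include reads of other transcripts in these spans.

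Listed rows near the 3 genes went both ways. Within 1 Mb of Zfp57 there was 1 listed row, Gnl1, a GTP-binding protein gene 994 kb away, with 26.9 FPKM in the Trrap-deleted library and 14.6 FPKM in the control library. Within 1 Mb of Grb10 there was also 1, Gm12002, 198 kb away, with 1.16 FPKM in the Trrap-deleted library and 0.332 FPKM in the control library. Both were thus listed higher, as 58.0% of all rows were, against the direction of their neighbour. Ddc, the neighbour of Grb10 that is also imprinted, was not listed.

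Nnat had 4 listed rows within 1 Mb, 2 higher and 2 lower, beside 58.0% higher and 42.0% lower over all rows. Tti1, 411 kb away, encodes a cochaperone subunit needed for the stability of the kinase family to which Trrap belongs, and had 13.6 FPKM in the Trrap-deleted library and 8.81 FPKM in the control library. Tgif2, a homeobox repressor gene 680 kb away, had 18.4 FPKM in the Trrap-deleted library and 32.8 FPKM in the control library. Dlgap4, a gene of a postsynaptic scaffold protein, was also lower, with 1.03 FPKM in the Trrap-deleted library and 2.43 FPKM in the control library. Gm14169 was higher, with 0.319 FPKM in the Trrap-deleted library and 0.101 FPKM in the control library. Gm14169, Dlgap4 and Tgif2 lie on one side of Nnat and Tti1 on the other.

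Imprinted genes as a group went both ways. Of 86 imprinted genes in the list, 9 had a row of their own, 5 of them lower and 4 higher, which is 55.6% lower beside 42.0% of all rows. The median log2 ratio of the 9 was -0.83, the value of Nnat itself, beside a median of 0.55 over all rows. Without Grb10 and Nnat, 4 of the other 7 were higher and their median was 0.89. The other 77 symbols had no row of their own. H19 was listed in a row shared with Mir675, and the rest include genes that did not pass the authors' test and genes without expression.

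The lower imprinted genes besides Grb10 and Nnat were Cdkn1c, Inpp5f and Slc38a1. Cdkn1c, which encodes the maternally expressed cell-cycle inhibitor p57, was 4.91-fold lower, with 6.002 FPKM in the Trrap-deleted library and 29.5 FPKM in the control library. Inpp5f, a phosphoinositide phosphatase gene with a paternally expressed brain transcript, had 27.8 FPKM in the Trrap-deleted library and 55.5 FPKM in the control library. Slc38a1, a glutamine transporter gene whose imprinting is less firmly established than that of its neighbour Slc38a4, had 28.7 FPKM in the Trrap-deleted library and 53.7 FPKM in the control library.

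The higher imprinted genes were Nap1l5, Rasgrf1, Trappc9 and Dcn. Nap1l5, a paternally expressed retrogene related to nucleosome assembly proteins, had 14.2 FPKM in the Trrap-deleted library and 5.13 FPKM in the control library. Rasgrf1, a Ras activator expressed from the paternal copy in the brain, had 5.97 FPKM in the Trrap-deleted library and 2.82 FPKM in the control library. Genes expressed from the paternal copy were thus found on both sides, with Nnat lower and Nap1l5 and Rasgrf1 higher. The Nap1l5 row spans 88934 bases, so its value, like that of Nnat, may include reads of other transcripts. Trappc9, a vesicle trafficking gene with a maternal bias in the brain, had 23.5 FPKM in the Trrap-deleted library and 12.7 FPKM in the control library. Dcn, which encodes the matrix proteoglycan decorin and is imprinted in the placenta, had 6.34 FPKM in the Trrap-deleted library and 1.79 FPKM in the control library. Genes expressed from the maternal copy were also on both sides, since the row shared by the maternal transcript H19 and Mir675 had 39.6 FPKM in the Trrap-deleted library and 12.1 FPKM in the control library. Counting that shared row turns the median log2 ratio of the group to 0.030.

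**Figure D3:**
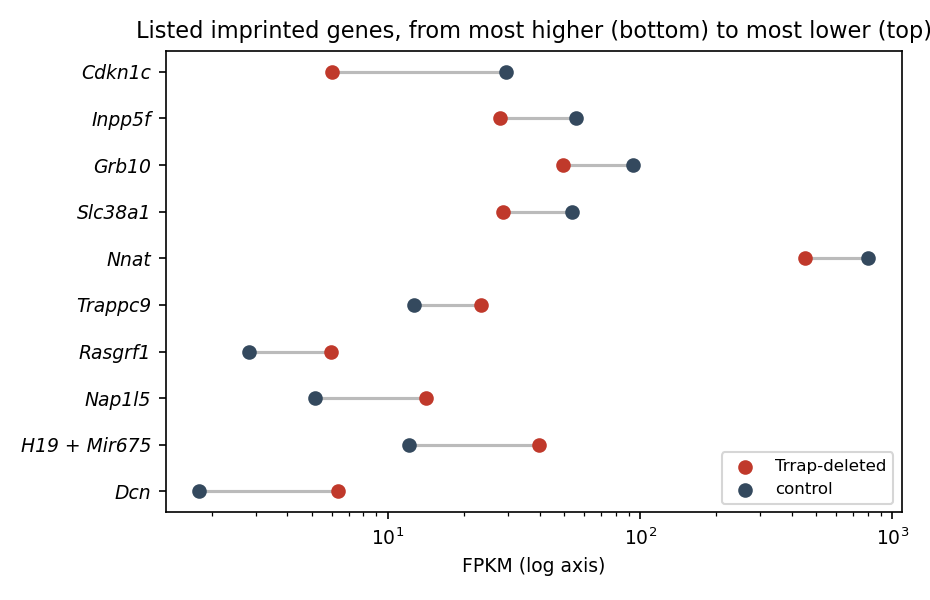
FPKM on a log axis is plotted for each listed imprinted gene, with the Trrap-deleted library in red and the control library in dark blue, joined by a grey line. The upper 5 genes, among them Grb10 and Nnat, were lower in the Trrap-deleted library and the lower 5 rows, among them the shared row of H19 and Mir675, were higher.

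Few genes of imprint maintenance besides Zfp57 were listed. Of 48 genes of imprint maintenance and DNA methylation, 2 were listed, Zfp57 and Hdac2, and both were lower. Of all rows 42.0% were lower, and of those with a mean of at least 50 FPKM 71.4% were. Zfp57 was chosen with its value known, and without it 1 listed gene remains, too few to describe the list. Hdac2, a histone deacetylase of the NuRD complex, had 157 FPKM in the Trrap-deleted library and 234 FPKM in the control library. The partner gene Trim28, the related imprint regulator Zfp445, the DNA methyltransferase genes Dnmt1, Dnmt3a and Dnmt3b, and Uhrf1 were not listed. Zfp57 is also known as a gene of embryonic stem cells. Of 25 pluripotency genes only Il6st was listed, a cytokine receptor subunit gene with 12.9 FPKM in the Trrap-deleted library and 6.93 FPKM in the control library.

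Genes with a Zfp symbol were mostly listed lower, as Zfp57 was. Of 29 such rows, 27 (93.1%) were lower and 2 higher, beside 42.0% lower over all rows. At least 2-fold lower were 8 of the 29, Zfp57 among them, beside 13.6% of all rows. The median log2 ratio of the 29 was -0.77, and -0.76 for the 28 without Zfp57. Zfp57 had both the highest control level and the largest difference of the 29. Among the lower rows Zfp663 had the next largest difference, with 1.24 FPKM in the Trrap-deleted library and 3.39 FPKM in the control library. Zfp266, chosen after its values were seen as a more abundant example, had 22.4 FPKM in the Trrap-deleted library and 48.5 FPKM in the control library. The 2 higher rows were Zfp641, with 2.80 FPKM in the Trrap-deleted library and 0.919 FPKM in the control library, and Zfp511, with 21.7 FPKM in the Trrap-deleted library and 13.6 FPKM in the control library. Related zinc finger genes can share reads, and the way such reads were assigned was not stated.

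**Figure D4:**
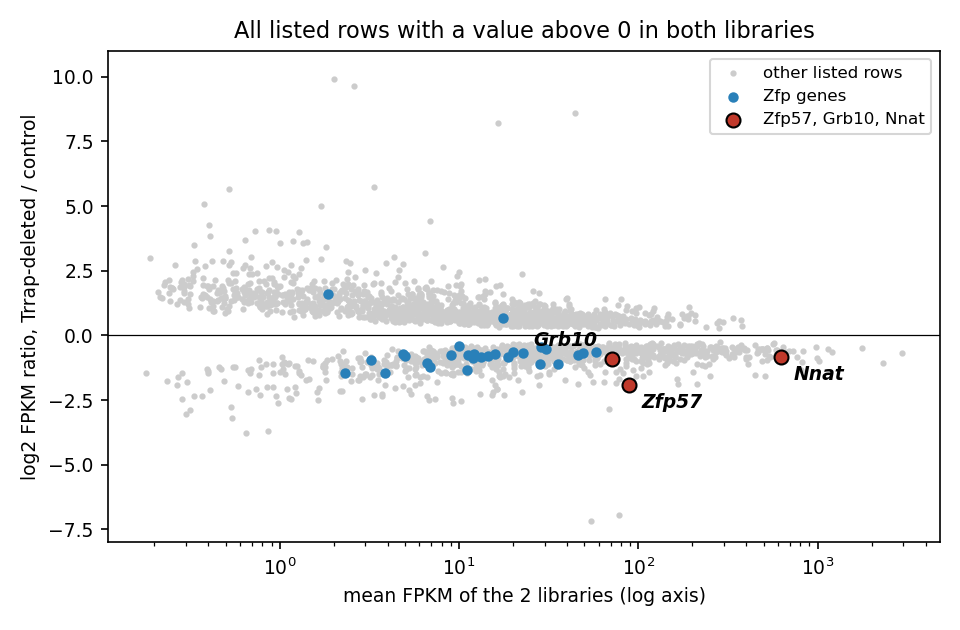
The log2 ratio of FPKM, Trrap-deleted over control, is plotted against the mean FPKM of the 2 libraries on a log axis for every listed row with a value above 0 in both libraries. Zfp57, Grb10 and Nnat (red) lie below 0 at the abundant end, where 71.4% of the rows are lower, and 27 of 29 Zfp genes (blue, Zfp57 in red) lie below 0. The empty band around 0 is where rows did not pass the authors' test.

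The insulin and IGF pathway, on which Grb10 acts, had listed genes in both directions. Of 60 genes, 11 were listed, 5 lower with Grb10 and 6 higher. That is 45.5% lower, near the 42.0% of all rows, and the median log2 ratio was 0.40, beside 0.55 over all rows. Pik3r3, a regulatory subunit of the PI3 kinase, was the lowest, with 14.6 FPKM in the Trrap-deleted library and 42.3 FPKM in the control library. Sh2b2, another adaptor of the insulin receptor, had 2.60 FPKM in the Trrap-deleted library and 5.25 FPKM in the control library. Igf1r, which encodes a receptor that Grb10 binds and was chosen after its values were seen, was lower too, with 10.5 FPKM in the Trrap-deleted library and 17.5 FPKM in the control library. The largest increases were in Igf2bp2, an RNA-binding protein gene, with 66.8 FPKM in the Trrap-deleted library and 39.8 FPKM in the control library, and in Mlst8, an mTOR complex subunit gene, with 18.1 FPKM in the Trrap-deleted library and 10.9 FPKM in the control library. With the median of all rows set to 0, which moves every log2 ratio by -0.55, 6 of the 11 were lower.

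Nnat was the only lower gene among listed genes of calcium handling and the signal peptidase in the endoplasmic reticulum. Of 33 such genes, 7 had a listed row of their own, and the 6 besides Nnat were all higher, or 5 of them with the median of all rows set to 0. The share of all rows listed higher was 58.0%, but 71.4% of the rows with a mean of at least 50 FPKM, such as Nnat, were lower. The other 6 were less abundant than Nnat, and the highest value among them was 113 FPKM, in the Trrap-deleted library. Outside these counts, a row shared by Casq1 and Pea15a was also higher, with 235 FPKM in the Trrap-deleted library and 140 FPKM in the control library. Ryr2, a calcium release channel gene, had 0.996 FPKM in the Trrap-deleted library and 0.275 FPKM in the control library. Stim1, the calcium sensor of the reticulum, had 10.6 FPKM in the Trrap-deleted library and 5.08 FPKM in the control library. Atp2a2, the main calcium pump of the reticulum, was not listed.

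The rows most like each gene were found by their distance in log2 FPKM over the 2 libraries. The nearest to Zfp57 were BC005764 (distance 0.23), Ppp1r14b, a phosphatase inhibitor gene (0.31), and Tagln3, a neuronal actin-associated gene (0.33). The nearest to Grb10 were Gm10269 (0.02) and Gm15387 (0.05), both annotated as processed pseudogenes and therefore uncertain, and Plxna3, a semaphorin receptor gene (0.07). Among the nearest to Nnat were the ribosomal protein genes Rps4x (0.19) and Rps9 (0.21). With 2 libraries, such likeness covers only a level and a difference.

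Markers of other cell types differed between the same libraries. The counts below stand beside 58.0% of all rows listed higher and 42.0% listed lower. Of 20 microglial and macrophage markers, 11 were listed, all higher, with a summed level of 41.4 FPKM in the Trrap-deleted library and 16.2 FPKM in the control library. None of these 11 was above 8.93 FPKM in either library, far below the level of the 3 genes. Of 20 meningeal and mesenchymal markers, 8 were listed, all higher, with sums of 17.6 FPKM in the Trrap-deleted library and 3.27 FPKM in the control library. Dcn belongs to both this list and the imprinted one. Of 21 ventral telencephalic markers, 5 were listed, 4 lower and 1 higher, with sums of 25.3 FPKM in the Trrap-deleted library and 34.5 FPKM in the control library. Of 25 choroid plexus, endothelial and red blood cell markers, 5 were listed, 4 higher and 1 lower, with sums of 174 FPKM in the Trrap-deleted library and 123 FPKM in the control library. Most of these sums was the embryonic globin gene Hbb-y, with 157 FPKM in the Trrap-deleted library and 96.8 FPKM in the control library. The choroid plexus marker Ttr had 3.31 FPKM in the Trrap-deleted library and 0.104 FPKM in the control library, and the transferrin receptor gene Tfrc had 9.24 FPKM in the Trrap-deleted library and 24.3 FPKM in the control library. No listed marker was at 0 in either library. The cortical marker Neurod6 was abundant in both, with 260 FPKM in the Trrap-deleted library and 312 FPKM in the control library. Its fold difference was the smallest among the listed cortical markers. The largest was that of Vim, with 387 FPKM in the Trrap-deleted library and 632 FPKM in the control library. Of 22 cortical markers, 5 were listed, 4 lower and 1 higher, or 3 lower with equal summed FPKM and 5 lower with the median of all rows set to 0. The Y-linked Eif2s3y had 32.8 FPKM in the Trrap-deleted library and 0.111 FPKM in the control library. The Y-linked Ddx3y (5.18 FPKM Trrap-deleted, 0.00653 FPKM control) and Kdm5d (3.99 FPKM Trrap-deleted, 0.00414 FPKM control) were likewise almost absent from the control library. The X-linked Xist had 142 FPKM in the Trrap-deleted library and 313 FPKM in the control library. The Trrap-deleted library thus held Xist together with Y-linked transcripts, while the control library held Xist with almost none of them. The sex make-up of the libraries therefore differed, which cannot be told apart from the genotype. The number of embryos of each sex was not stated. Neurod6, Eif2s3y and Xist were chosen after their values were seen. The part of these differences in the values of Zfp57, Grb10 and Nnat was not tested, and with 1 library per genotype they cannot be told apart from the deletion.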

How the data were processed

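RNA of E14.5 cortex was sequenced in 2 samples, 1 per genotype. Alignment used TopHat2 (version not given) and build mm9, per the submitters' processing notes. The single table has the layout that Cuffdiff writes, and its 2 value columns were read as FPKM as deposited by the authors, a unit inferred from that layout. Each row's p-value and q-value were deposited by the authors and come from their own test, whose software and replication were not stated. The table holds only rows the authors marked significant (highest q-value 0.0500), so an absent gene is called not listed. Trrap had no row, so it gave no check of the labels.

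Ratios were computed with pandas 2.3.3 in Python 3.11.15 from FPKM without a pseudocount, after the functions were tested on simulated data. No test between genotypes was run. The members and the 11 gene lists (356 symbols) were chosen with earlier results of these data known. Lists count single-symbol rows, 1 per symbol. Named genes were the 3 members, every listed imprinted gene, listed rows within 1 Mb of a member, the 3 most similar rows for each member, and up to 2 largest increases and 2 largest decreases of other lists; exceptions are marked in the text, 1 similar row is not reported here, and lists of cell markers are given as sums. Starts were moved to 1-based counting. GENCODE M21 and RefSeq, on GRCm38, gave gene lengths, neighbours and promoter sequences by symbol, and no coordinate was converted between builds. Alternatives were pseudocounts, rescaled libraries, and filters on FPKM and q-value.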

Additional observations from a re-analysis of the deposited data

How the results depend on the processing

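Zfp57, Grb10 and Nnat kept a lower value in the Trrap-deleted library under all 4 alternatives tried for each. Pseudocounts of 0.1 and 1 FPKM moved their log2 ratios by less than 0.1, the size from which a move is counted here, since no replicate spread exists. Setting the median of the listed rows to 0 gave log2 ratios of -2.46 for Zfp57, -1.45 for Grb10 and -1.38 for Nnat, all past 2-fold lower, and scaling to equal summed FPKM, which adds 0.35 to every log2 ratio, gave -1.57, -0.56 and -0.48 for the same genes. The median over the listed imprinted genes, -0.83, became -1.38 and -0.48 under these rescalings and changed sign to 0.030 when the row shared by H19 and Mir675 was counted, while the counts of 4 higher and 5 lower changed only through that row, to 5 higher. At a q-value under 0.01, 16 Zfp genes were lower and 1 higher, against 27 and 2 as reported. Depth is unknown and each genotype had 1 library, so neither counting error nor the spread between embryos could be set beside any value, and no library could be left out.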
